A study of Mus musculus with 6 samples.

Results

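Translation initiation and elongation factors are the proteins that load messenger RNA and the initiator tRNA onto the ribosome and then drive it along the coding sequence. Their genes were chosen by name: every row of the count table with a symbol starting Eif1 to Eif6 or Eef1 to Eef2, without pseudogene symbols, Eif2s3x and Eif2s3y, plus Pdcd4, which encodes an inhibitor of initiation. The rule gave 72 of the 22413 genes in the table, and it used no measured value. Of these, 66 belong to a role described below. The other 6 are Eif1ad3, Eif1ad5, Eif1ad6, Eif1ad7 and Eif1ad8, which are relatives of Eif1ad, and Eif2c5, whose old style of symbol was used for Argonaute genes and not for initiation factors. No row with the symbol Eif4ebp2 was among the members, so this inhibitor is not analysed here.

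The samples are bulk RNA of mouse retinal ganglion cells, which are the output neurons of the eye. All mice carried a floxed Tgfbr1 gene on both alleles (Tgfbr1flx/flx), a receptor gene of transforming growth factor beta signalling. In 3 samples the mice were Vglut2Cre/+, so that Cre recombinase is driven by the gene of a vesicular glutamate transporter and acts only in cells that use, or whose precursors used, that gene. These are called the Cre libraries. The other 3 came from Vglut2+/+ mice without Cre and are the control libraries. The sources used here do not give the isolation of the cells, the age of the mice, or whether a sample is 1 animal or a pool. The p-values therefore measure only how these samples vary, and that variation may be technical.

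Initiation begins when eIF2 brings the initiator tRNA to the small ribosomal subunit together with eIF1, eIF1A, eIF3 and eIF5. The eIF4F complex, made of the cap-binding protein eIF4E, the scaffold eIF4G and the helicase eIF4A, then recruits the capped messenger RNA. eIF2B recharges eIF2 with GTP, and stress kinases that phosphorylate eIF2 block that step and lower translation as a whole. During elongation eEF1A delivers aminoacyl-tRNAs, the eEF1B subunits recharge it, and eEF2 moves the ribosome by a codon. In neurons these steps are known as points of control by mTOR signalling and by the integrated stress response.

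The libraries held 7486359 to 21126291 counts, and 3 counts corresponded to 0.142 to 0.401 CPM (counts scaled to a library total of 1000000). Throughout, 3 values in a row are controls 1, 2 and 3, and the 3 set against them are Cre 1, 2 and 3. Tgfbr1 had 1, 0 and 1538 counts over the controls and 46, 0 and 793 over the Cre libraries. The floxed part is not counted apart from the rest of Tgfbr1, so the labels are not checked by it. Of 12 markers of ganglion cells, 5 to 9 were detected in each library, where detection means 10 counts or more. Control 3 stood apart. It had 0 counts of Slc17a6, the gene that drives Cre, 1 of Thy1 and 85 of Nefl, where Slc17a6 had 2101 to 13948 in the other 5 libraries. Of the 12 ganglion cell markers, 6 were at 0 in control 3 and 5 were detected. Some were not low there: Rbpms was at 257 CPM and Pou4f1 at 85.1 CPM, against 4.48 and 0 CPM in control 1. The 12 endothelial markers, all detected in control 3, summed to 7847 CPM there, against 36.1 to 831.6 CPM in the others. No endothelial marker was at 0 there, while 2 to 8 of the 12 were at 0 in each other library. In bulk RNA, fewer cells of a type and less RNA per cell cannot be told apart.

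The members were measured more broadly than most genes, but still unevenly. Of the 72 members, 41, 42 and 45 were detected in controls 1, 2 and 3 and 50, 54 and 50 in Cre 1, 2 and 3. Every Cre library thus detected more members than every control library, with means of 51.3 ± 2.31 and 42.7 ± 2.08 (SD, n = 3) and a ratio of 1.2, or 1.24 without control 3. Over all genes of the table the same ratio was 1.45, from 4528 ± 308 in the controls to 6579 ± 723 in the Cre libraries (SD, n = 3). With all libraries thinned to 7486359 counts, the ratios became 1.21 for the members and 1.43 for all genes. Of the members, 26 (36.1%) were detected in all 6 libraries and 8 (11.1%) in none, where 5.34% of all genes were detected in all 6 and 46.6% in none. The 8 were Eif1ad3, Eif1ad6, Eif1ad7, Eif1ad8, Eif2c5, Eif4a3l1, Eif4e1b and Eef1akmt3, each with 10 counts or fewer over the 6 libraries together.

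**Figure D1:**
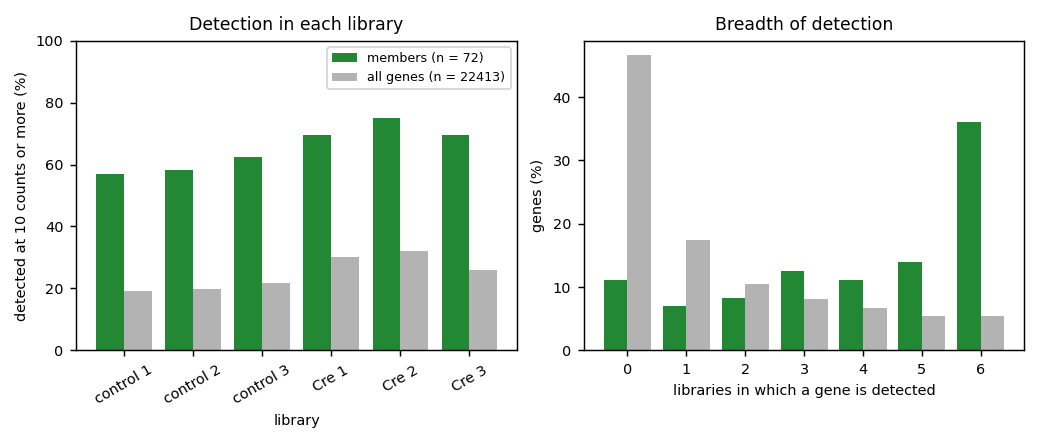
Left: percent of members (n = 72, green) and of all genes (n = 22413, grey) with 10 counts or more in each library. Right: percent of each set detected in 0 to 6 libraries. Members were detected at 56.9% to 75% per library and all genes at 19% to 32.2%, and both shares were higher in each Cre library than in each control library.

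Many members were high in some libraries and near 0 in others. For 25 of the 72 (34.7%), at least 1 library held 4 counts or fewer and at least 1 other held 100 CPM or more. Among genes tested, the share with this pattern was 40.4% of 52 members and 55.5% of all 5727 genes. The coefficient of variation over the 6 libraries (SD divided by mean CPM) had a median of 97.4% over the tested members and 121% over all tested genes. It ran from 36.3% for Eif4a1, a helicase of eIF4F, to 233% for Eif5a, which promotes peptide bond formation at slow sites. The members' summed level was 10618, 14221 and 18051 CPM in controls 1, 2 and 3 and 13455, 15904 and 15536 CPM in Cre 1, 2 and 3, which is 1.06% to 1.81% of a library. The groups overlapped, with a ratio of means of 1.05, and the ratio was 0.927 without control 1 and 1.2 without control 3.

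**Figure D2:**
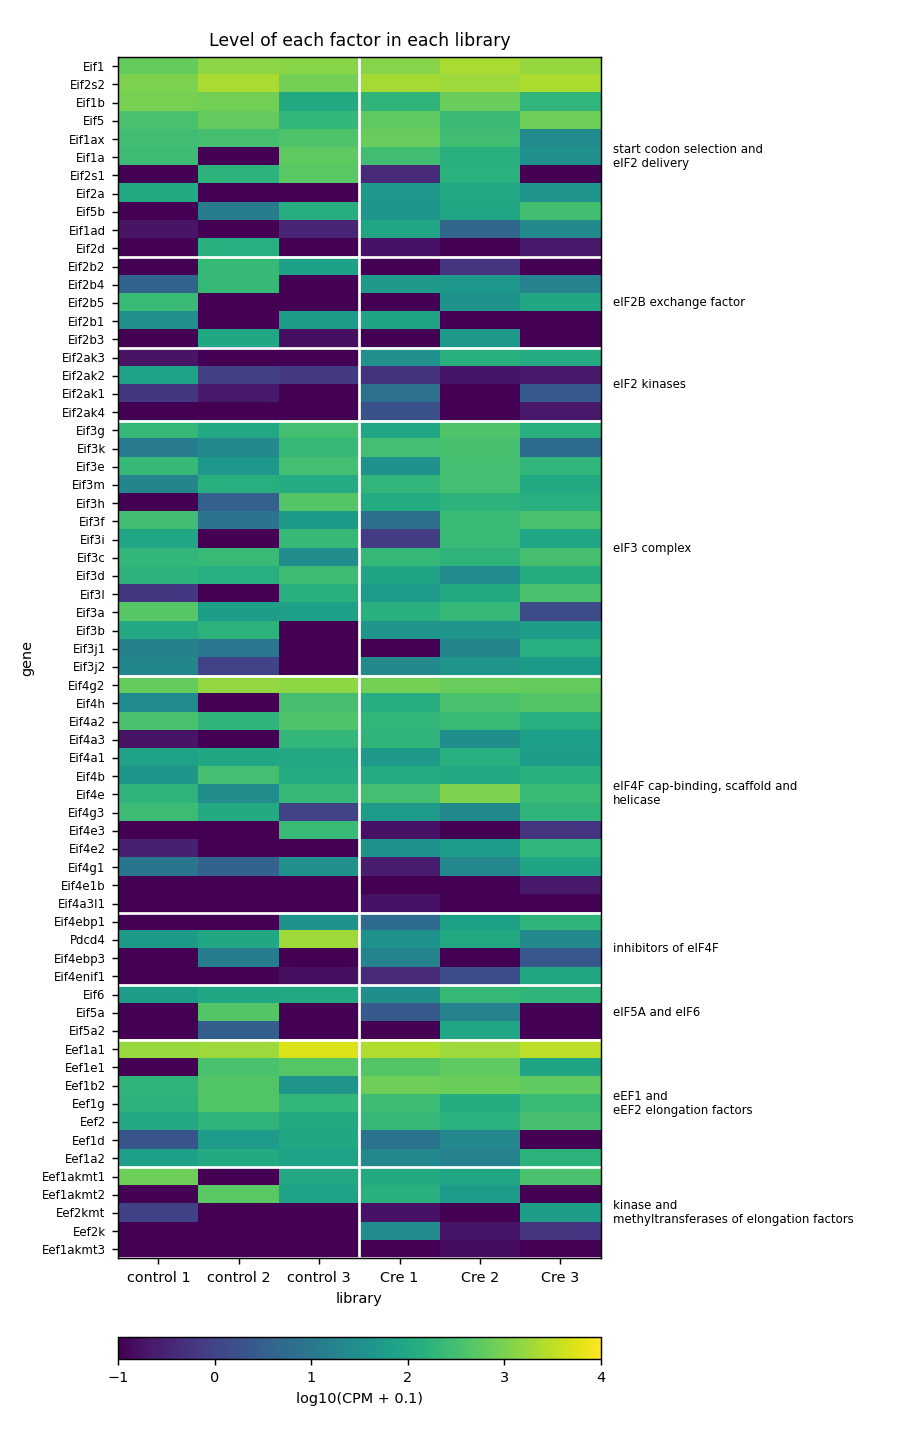
Heat map of log10(CPM + 0.1) for the 66 members with a role (rows, grouped by role and ordered by mean FPKM within it) in the 6 libraries (columns). The rows of Eef1a1, Eif1, Eif2s2 and Eif4g2 are bright in every library, while the rows of eIF2B, the eIF2 kinases and the methyltransferases hold dark cells in both groups.

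Compared per length of gene, in FPKM (counts scaled to gene length and library total), the elongation factor Eef1a1 was the highest member at a mean of 1520 FPKM over the 6 libraries, rank 67 among all genes. Eif1, which keeps the scanning ribosome from starting at a wrong codon, followed at 1122 FPKM, Eif2s2, the beta subunit of eIF2, at 698 FPKM and Eif1b, a close relative of Eif1, at 547 FPKM. Eef1e1, a scaffold protein of the tRNA synthetase complex, had 320 FPKM. The range of each over libraries was wide, from 942 to 2870 FPKM for Eef1a1, 527 to 1878 for Eif1, 357 to 944 for Eif2s2, 121 to 1027 for Eif1b and 0 to 590 for Eef1e1, so that neighbours in this order were not separated beyond their spread. Eef1a1 took 11.8% to 28.5% of the members' summed CPM in a library. Its neuronal paralog Eef1a2, which replaces it in mature neurons and muscle, had a mean of 9.74 FPKM, and the ratio of Eef1a1 to Eef1a2 ran from 72.2 to 286 in the controls and from 86.2 to 530 in the Cre libraries.

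No member passed the comparison of Cre with control. The question is whether Vglut2-driven Cre on floxed Tgfbr1 goes with other levels of these factors. edgeR's quasi-likelihood test with Benjamini-Hochberg adjustment called 0 of 52 tested members and 0 of 5727 tested genes (0%) at 0.05, with 0.752 the smallest adjusted p among members. At an unadjusted p under 0.05 there were 4 members (7.69%), against 4.91% of all tested genes. Eif2ak3, Eif4e2 and Eif1ad were higher in the Cre libraries, a direction in which 4.49% of all genes had such a p, and Pdcd4 was lower, where 0.419% of all genes did. Eif2ak3, Eif4e2 and Eif1ad had 10 counts or more in all 3 Cre libraries and in no control. They thus passed the filter for testing only through the group where they were high, and their p-values and calls carry that selection. DESeq2 on the same genes called 3 members, Eif2ak3, Eif4e2 and Eif1ad, and 6.23% of the 4899 genes given an adjusted p. With its own filter it called these and Eif2b2, which was lower in the Cre libraries, and 15% of the 5900 genes given an adjusted p. Both DESeq2 fits left Pdcd4, Eif2a, Eif2b4, Eif3h, Eif3k and Eif5a without a p-value. Limma voom called Eif2ak3 and Eif4e2, and 1.54% of all genes. Data were also simulated with a spread near that of these libraries. In them edgeR recovered none of the changed genes, and most calls of DESeq2 and limma voom were of unchanged genes. How the 3 methods treat differences as large as those fitted for Eif2ak3, Eif4e2 and Eif1ad was not tested. The other 20 members did not pass the filter, which asks for counts in enough libraries; Eif4e3, with 4000 counts in all, was among them.

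The balance of signs was close to that of all genes. A positive log2 fold change (Cre against control) was fitted for 30 of the 52 tested members (57.7%) and for 54.2% of all tested genes, with medians of 0.11 and 0.14. With the size factors of DESeq2 in place of TMM scaling, 25 of 52 members (48.1%) and 46.8% of all genes were positive, with medians of -0.23 and -0.13, so the balance of signs depended on the scaling. For 6 tested members the lowest Cre library exceeded the highest control (11.5%, against 10.4% of tested genes), namely Eef1b2, Eif1ad, Eif2ak3, Eif3j2, Eif4e and Eif4e2. Every Cre library lay below every control library for Eif3d alone (1.92%, against 2.3% of tested genes). Both shares were near those of all genes. Of the members not tested, Eef2k and Eif4enif1 were higher in every Cre library and Eif2ak2 lower. These separations rested on few counts. Eef2k had 2 and 4 counts in Cre 2 and Cre 3 against 0 in every control. Eif4enif1 had 4 in Cre 1 against 1 in control 3, and Eif2ak2 had 6 in control 2 and 6 in Cre 1. The share of such genes among all untested genes was not computed.

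**Figure D3:**
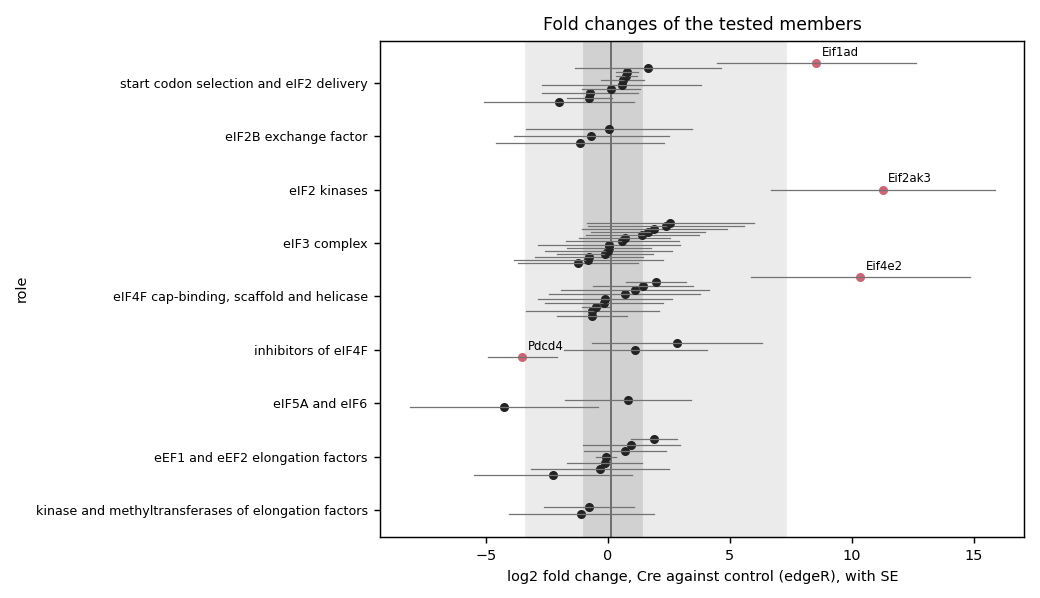
Log2 fold change of Cre against control with its SE from edgeR (horizontal axis) for the 52 tested members, grouped by role (vertical axis). Red points had an unadjusted p under 0.05; the dark and light grey bands hold the middle 50% and 90% of all 5727 tested genes and the line marks their median of 0.14. Most members lie within the dark band, and Eif2ak3, Eif4e2 and Eif1ad lie to the right of the light one.

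Among the factors that select the start codon and deliver eIF2, 7 of 10 tested members had a positive log2 fold change (median 0.59). Of these 7, Eif1ax turned from 0.15 to -0.21 with the size factors of DESeq2 in edgeR. Eif2s2 (chromosome 2, 154871410 to 154892906; gene positions here are RefSeq's on GRCm38.p6, the assembly called mm10) was at 1021, 2291 and 897 CPM in controls 1, 2 and 3 and at 2105, 1839 and 2372 CPM in the Cre libraries. Control 2 was as high as the Cre libraries, and the log2 fold change was 0.75 ± 0.43 (SE; edgeR adjusted p = 1). Eif1 (chromosome 11, 100319949 to 100322099) was at 665, 1334 and 1314 against 1220, 2368 and 1592 CPM, with overlapping groups and a log2 fold change of 0.78 ± 0.46 (edgeR adjusted p = 1). Eif1b was at 942, 869 and 111 CPM in the controls and 187, 710 and 193 in the Cre libraries, and so was high and low within each group. Eif5, which triggers GTP hydrolysis by eIF2, was at 369, 619 and 206 against 598, 258 and 794 CPM. Eif1ax and Eif1a, which encode forms of eIF1A, were at 25.9 to 684 CPM and 0 to 584 CPM over the 6 libraries.

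The alpha subunit of eIF2, the target of the stress kinases, was far more uneven than the beta subunit. Eif2s1 had 0, 1270 and 8413 counts over the controls and 4, 3286 and 0 over the Cre libraries. In control 1 and Cre 3, where it had 0 counts, Eif2s2 had 11852 and 19214. Both proteins sit in the same complex in equal number, and per length the level of Eif2s1 was 0.000109 to 0.457 times that of Eif2s2 in the 4 libraries where it had more than 3 counts. Control 3 held 61.2% of its CPM summed over the libraries.

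Eif1ad, an eIF1A-like protein, had 1, 0 and 4 control counts against 1268, 91 and 203 with Cre. The groups did not overlap, and the ratio of depth-scaled totals was 257, with a 95% counting interval of 110 to 792 that covers counting error only. Cre 1 held 75.4% of the summed CPM, and the ratio was 71.4 without it, 474 without Cre 2 and 691 without control 3. The fitted log2 fold change was 8.54 ± 4.08 (edgeR unadjusted p = 0.0488, adjusted p = 1), and it was 6.8 without Cre 1. Its transcript shares at least 200 bases at 95% identity or more with that of Banf1, so its counts are uncertain. Over the alternatives its adjusted p ran from 0.00334 (DESeq2 on the same genes) to 1. The remaining factors of this role were patchy: Eif2d, which can deliver tRNA without eIF2, had 1009 counts in control 2 and at most 1 elsewhere. Eif2a was at 0 counts in controls 2 and 3 and had 321 to 2156 in the other 4 libraries, and Eif5b, which joins the ribosomal subunits, had 0 in control 1 and 97 to 2461 elsewhere.

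The 5 subunits of eIF2B were never detected together. Libraries held 3, 3 and 2 of them in controls 1, 2 and 3 and 2, 4 and 2 in Cre 1, 2 and 3, and different subunits were the missing ones. Eif2b1, of the regulatory core, had 370, 0 and 1006 control counts against 1156, 0 and 0 with Cre. Eif2b5, the catalytic subunit, had 2858, 0 and 0 against 0, 772 and 767. Eif2b2, also regulatory, had 0, 1652 and 1169 against 0, 10 and 0. Neither group held the whole complex in any library. Eif2b3 had 0, 757 and 1 counts against 0, 1093 and 0. Eif2b4 was detected in 5 of 6 libraries, with 45, 1702 and 0 counts against 693, 984 and 131. Of the 3 tested subunits, 1 had a positive log2 fold change and 2 a negative one (median -0.67). The positive one, Eif2b1, turned from 0.07 to -0.34 with the size factors of DESeq2 in edgeR.

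**Figure D4:**
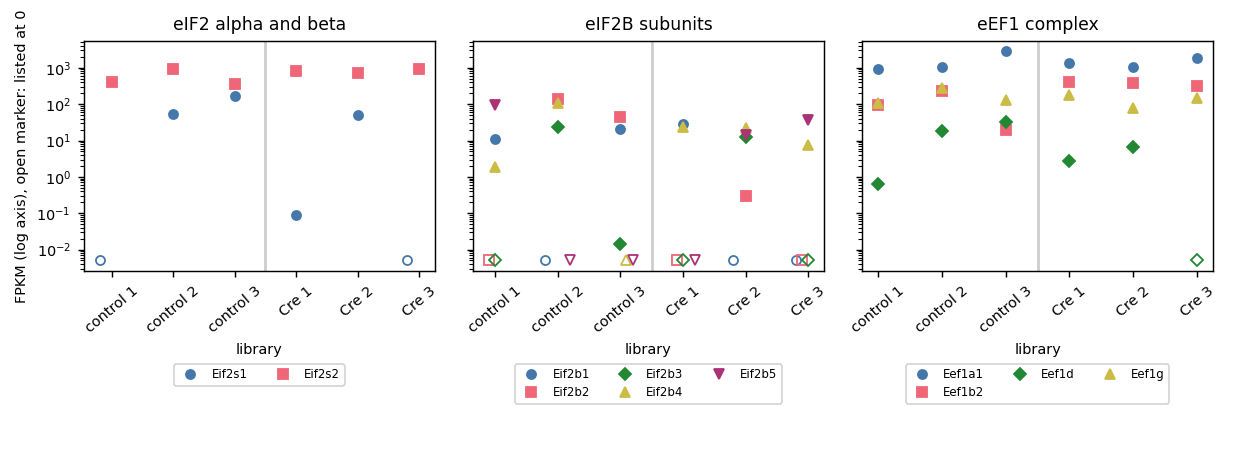
FPKM (log axis) in each library for the alpha and beta subunits of eIF2 (left), the 5 subunits of eIF2B (middle) and 4 proteins of the eEF1 complex (right); open markers at the bottom are libraries where a gene is listed at 0, moved sideways to show each. Eif2s2 stays between 357 and 944 FPKM while Eif2s1 reaches 0 in 2 libraries, and no library shows all 5 eIF2B subunits at 10 counts or more.

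Of the 4 eIF2 kinases, the one that senses unfolded protein in the endoplasmic reticulum was detected in all 3 Cre libraries and in no control. Eif2ak1 and Eif2ak4, described below, were also detected only in Cre libraries, in 2 and 1 of them. Eif2ak3, which encodes PERK (chromosome 6, 70844484 to 70905241), had 466, 3205 and 959 counts in Cre 1, 2 and 3 and 1, 0 and 0 in the controls. In CPM this was 33.4, 152 and 118 in the Cre libraries, and the groups did not overlap. The ratio of depth-scaled totals was 3805 (95% counting interval 683 to 150310), and 2048 without control 3 or 2294 without Cre 2. Its transcript has a near copy, by the same criteria as for Eif1ad, in Gm43292, so its counts are uncertain too. The fitted log2 fold change was 11.27 ± 4.6 (edgeR unadjusted p = 0.023, adjusted p = 0.781), and it depends on the prior count since the controls were near 0. DESeq2 on the same genes gave an adjusted p of 0.000109 and limma voom 0.0343, and over all alternatives the adjusted p ran from 0.000109 to 1. Leaving out any 1 library kept the log2 fold change at 10.68 to 13.4, with adjusted p of 0.417 to 0.955.

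The other kinases were too sparse to test. Eif2ak2, the kinase PKR activated by double-stranded RNA, had 890, 6 and 10 control counts against 6, 2 and 1 with Cre. Control 1 held 97.4% of its summed CPM, and although the groups did not overlap, controls 2 and 3 were at 0.801 and 0.611 CPM against 0.431 at most. Eif2ak1, the haem-regulated kinase, had 6, 1 and 0 against 102, 0 and 20 counts. Eif2ak4, the amino acid sensor GCN2, had 0 counts in every control and 23, 0 and 1 in the Cre libraries. Its depth-scaled Cre total was at least 6.57-fold higher with a floor of 3 counts over the control group. This total rested on Cre 1, which held 93% of the summed CPM.

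The eIF3 complex, the large platform that binds the small ribosomal subunit, was widely measured. All 14 members were tested and 8 were detected in all 6 libraries, with 12, 11 and 11 detected in controls 1, 2 and 3 and 12, 14 and 14 in Cre 1, 2 and 3. Of the 14, 10 had a positive log2 fold change (median 0.33), and 0 had an unadjusted p under 0.05. Of these 10, Eif3g, Eif3h and Eif3i were at 0.06, 0.03 and 0.06. With the size factors of DESeq2 in edgeR they turned to -0.24, -0.38 and -0.26, so the balance of signs depended on the scaling here too. Within a library the highest subunit exceeded the lowest detected one by 30.3-fold to 911-fold per length, and the highest was a different subunit in most libraries. Eif3g led control 1 and Cre 2, Eif3m control 2, Eif3h control 3, Eif3k Cre 1 and Eif3f Cre 3.

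Eif3g, a subunit that helps scanning, was at 214, 104 and 324 CPM in the controls and 90.4, 416 and 148 in the Cre libraries, and the groups overlapped fully. Eif3k was at 10.8, 22 and 219 against 326, 353 and 5.8 CPM, high in Cre 1 and Cre 2 and lowest in Cre 3. Eif3e was at 226, 45.5 and 314 against 35.9, 321 and 193 CPM. None of these subunits separated the groups. Eif3d (chromosome 15, 77958998 to 77970824), a subunit that can bind the cap itself, was at 169, 145 and 271 CPM in the controls and 83.3, 26.5 and 125 in the Cre libraries. It was lower in every Cre library than in every control, by 0.401 in the ratio of means, with a log2 fold change of -1.23 ± 2.45 (SE; edgeR adjusted p = 1).

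Eif3j2 was the subunit with the opposite separation, at 19.3, 0.935 and 0 CPM in the controls and 22.8, 40.4 and 53.6 in the Cre libraries. Control 1 lay close below Cre 1, and the log2 fold change was 2.39 ± 3.21 (SE; edgeR adjusted p = 1). It is a near copy of Eif3j1, which was at 15.9, 9.22 and 0 against 0, 19.1 and 142 CPM, so reads of the pair are uncertain. The other subunits ranged from 0 to 492 CPM. Eif3a, the scaffold of the complex, was highest in control 1 at 492 CPM and lowest in Cre 3 at 1.36 CPM, and Eif3h was at 0, 3.34 and 455 CPM in the controls against 121, 174 and 136 CPM.

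In the eIF4F group, 5 of 10 tested members had a positive log2 fold change (median 0.29). Eif4e (chromosome 3, 138526191 to 138559696), the cap-binding protein, was at 177, 28.2 and 216 CPM in controls 1, 2 and 3 and at 324, 1075 and 234 CPM in Cre 1, 2 and 3. All Cre libraries lay above all controls, with Cre 3 close to control 3 and Cre 2 far above the rest. The log2 fold change was 1.97 ± 1.22 (SE; edgeR unadjusted p = 0.12, adjusted p = 1), and it was 1.08 without Cre 2. Eif4e2, a cap-binding relative that cannot bind eIF4G and acts in repression, had 2, 0 and 0 control counts against 508, 1241 and 1594 with Cre. These were 36.5, 58.7 and 197 CPM in the Cre libraries, and the ratio of depth-scaled totals was 1374 (95% counting interval 380 to 11347), or 740 without control 3 and 885 without Cre 3. Its log2 fold change was 10.35 ± 4.49 (edgeR unadjusted p = 0.0316, adjusted p = 0.84), with an adjusted p of 0.000296 to 1 over the alternatives. Eif4e3, another relative of Eif4e, had the reverse pattern in a single library, with 3995 counts in control 3 and 0 to 4 in the other 5.

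**Figure D5:**
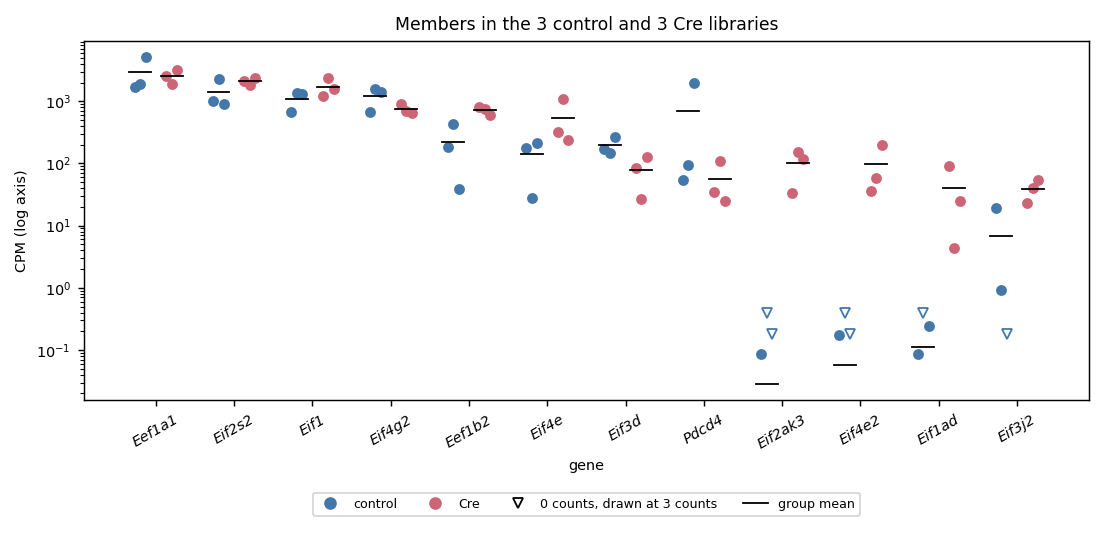
CPM (log axis) of 12 members in the 3 control (blue) and 3 Cre (red) libraries; each point is a library, bars are group means and open triangles mark libraries with 0 counts, drawn at the level of 3 counts but entered as 0 in the means. The single high Pdcd4 point at 1960 CPM is control 3, and Eif2ak3, Eif4e2 and Eif1ad sit at or near 0 in all controls.

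Stretches of the promoters are shown for 4 members whose Cre libraries all exceeded the controls, and for Pdcd4, to place their starts on the genome. They run from 100 bases before to 15 bases after a RefSeq start (GRCm38.p6), 5′ to 3′ on the gene's own strand. Capitals mark the letters CCGGAAGT, the core bound by ETS factors, and CACGTG, the E-box bound by MYC and related factors, searched on both strands. Where RefSeq gives several starts, the first is shown for Eif4e2 and the second for Eif4e and Pdcd4.
Eef1b2, chr1:63176731-63176845, plus strand: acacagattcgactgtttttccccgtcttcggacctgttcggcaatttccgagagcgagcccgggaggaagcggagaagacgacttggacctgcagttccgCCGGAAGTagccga
Eif4e2, chr1:87213811-87213925, plus strand: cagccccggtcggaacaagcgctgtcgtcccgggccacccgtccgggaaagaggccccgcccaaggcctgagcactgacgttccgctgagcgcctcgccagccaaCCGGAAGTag
Eif4e, chr3:138527168-138527282, plus strand: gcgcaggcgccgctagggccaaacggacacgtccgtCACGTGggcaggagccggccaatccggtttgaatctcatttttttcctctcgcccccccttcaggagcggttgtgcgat
Eif2ak3, chr6:70844415-70844529, plus strand: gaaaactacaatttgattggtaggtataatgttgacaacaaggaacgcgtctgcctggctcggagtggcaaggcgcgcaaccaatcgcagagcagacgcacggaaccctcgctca
Pdcd4, chr19:53903251-53903365, plus strand: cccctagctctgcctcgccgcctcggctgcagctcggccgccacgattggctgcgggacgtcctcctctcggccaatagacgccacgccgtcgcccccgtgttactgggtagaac

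Both Eef1b2 and Eif4e2 hold the ETS core near their starts. Its first base is at position 2 in Eef1b2 and at 6, 3 and -23 from the 3 starts of Eif4e2, and Eif4e has 2 E-boxes in its full window, at -228 and -64. Of the members, 51 had at least 1 RefSeq window, which spans 250 bases before to 50 after a start, and they had 67 windows in all. CCGGAAGT was found in 11 of the 67 (16.4%) and in 3.89% of all 32851 windows, and CACGTG in 14 (20.9%) and 7.15%. The letters TATAAA of a TATA box were found in 4 (5.97%) and in 13.6% of all windows, and the 4 genes included Eef2. TGATGNAAN, the element bound by C/EBP and ATF4 dimers, was found in 1 (1.49%) and in 3.95%. The 9 genes with CCGGAAGT were Eef1b2, Eif2ak1, Eif2b2, Eif2b4, Eif3d, Eif3l, Eif4e2, Eif5a and Eif5a2, so members that lay above the controls (Eef1b2, Eif4e2), below them (Eif3d) and in overlap with them (Eif3l) all held it. The motifs were chosen after the sequences were read, so these shares are a description and no test. Windows of a gene can overlap, and the 3 of Eif4e2 hold the same CCGGAAGT site. These matches describe letters only.

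Eif4g2 had the highest mean of this role per length, at 126 FPKM. It encodes a scaffold without the site for eIF4E and was at 669, 1553 and 1400 CPM in the controls and 906, 703 and 655 in the Cre libraries, with a log2 fold change of -0.49 ± 0.55 (SE; edgeR adjusted p = 1). Control 1 lay among the Cre libraries. The canonical scaffold Eif4g1 was far lower, at 0.026 to 14.9 FPKM against 84.4 to 200 FPKM of Eif4g2. Eif4a2, the helicase form typical of neurons, was at 359, 184 and 418 against 203, 231 and 140 CPM, and Eif4a1 at 48.2 to 134 CPM over all libraries. The ratio of Eif4a1 to Eif4a2 per length lay between 0.521 and 1.34 in the controls and 0.577 and 1.41 in the Cre libraries, so neither form prevailed in either group. Eif4h, a cofactor of the helicase, was at 27, 0 and 336 against 130, 371 and 454 CPM. Eif4b, Eif4a3 and Eif4g3 ranged from 0 to 322 CPM with overlapping groups.

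Of the inhibitors of eIF4F, Pdcd4 was the tested member with the smallest unadjusted p, and its difference rested on control 3. Pdcd4 (chromosome 19, 53892231 to 53937592) binds eIF4A and keeps it from the scaffold. It was at 54.1, 94.4 and 1960 CPM in controls 1, 2 and 3 and at 34.7, 111 and 24.9 CPM in Cre 1, 2 and 3. Control 3 held 86% of the CPM summed over the 6 libraries, and without it the controls lay within the range of the Cre libraries. The log2 fold change was -3.51 ± 1.41 (edgeR unadjusted p = 0.0209, adjusted p = 0.752), and it was -0.27 ± 3.5 without control 3. In the other alternatives the sign stayed negative, and the adjusted p ran from 0.154 to 1, where there was one. Both DESeq2 fits gave Pdcd4 no p-value. Control 3 is the library with 7847 CPM of endothelial markers and 0 counts of Slc17a6, though 5 of 12 ganglion cell markers were detected in it. What part endothelial cells had in the level of Pdcd4 was not tested.

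The eIF4E-binding proteins, which compete with the scaffold for eIF4E until mTOR phosphorylates them, were sparse. Eif4ebp1 had 0, 0 and 585 control counts against 76, 1451 and 1433 with Cre. In CPM, control 3 at 35.7 lay between Cre 1 at 5.45 and Cre 2 at 68.7, so the groups overlapped (log2 fold change 2.82 ± 3.48, SE; edgeR adjusted p = 1). Eif4ebp3 had 0, 92 and 0 against 236, 0 and 18 counts. Eif4enif1, which carries eIF4E into the nucleus, had 0, 0 and 1 control counts against 4, 30 and 764 with Cre, of which Cre 3 held 98.2% by CPM, and it was not tested.

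Eif6, which keeps the large ribosomal subunit from joining too early, was at 61.2, 101 and 102 CPM in the controls and 31.5, 228 and 186 in the Cre libraries. Eif5a had 0, 3370 and 0 counts against 34, 346 and 0, so that control 2 held 96% of its CPM. Its paralog Eif5a2 had 0, 24 and 0 against 0, 1798 and 0 counts. Each form was thus abundant in a single library, and not in the same one.

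Of the elongation factors, Eef1b2 was the one whose groups did not overlap. Eef1b2 (chromosome 1, 63176831 to 63180486), the exchange factor that recharges eEF1A, was at 184, 432 and 38.4 CPM in controls 1, 2 and 3 and at 798, 739 and 596 CPM in Cre 1, 2 and 3. The Cre libraries were close to each other and all above the controls, with means of 711 ± 104 and 218 ± 199 CPM (SD, n = 3). The log2 fold change was 1.9 ± 0.94 (edgeR unadjusted p = 0.0562, adjusted p = 1), it ran from 1.39 without control 3 to 2.56 without control 2, and the adjusted p over all alternatives ran from 0.241 to 1. Eef1g, its partner in the eEF1B complex, was at 173, 432 and 201 against 286, 125 and 235 CPM, with overlapping groups. Per length, the ratio of Eef1b2 to Eef1g was 0.863, 0.811 and 0.155 in the controls and 2.26, 4.78 and 2.06 in the Cre libraries. This pair was picked after its values were seen, and the ratio is a description. Eef1d, another exchange subunit, had 22, 422 and 1659 counts against 116, 439 and 0.

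Eef1a1 (chromosome 9, 78478453 to 78481724) was at 1686, 1882 and 5137 CPM in the controls and 2506, 1876 and 3239 in the Cre libraries. Control 3 was the highest and the groups overlapped. The log2 fold change was -0.08 ± 0.42 (SE; edgeR adjusted p = 1), and it turned to 0.58 without control 3 and 0.1 without Cre 2. Limma voom gave -0.98 (adjusted p = 0.096). GENCODE lists 9 pseudogenes that match its transcript at 95% identity or more over at least 200 bases, and none of them is a row of the count table. Eef2, the translocase, was at 103, 182 and 111 against 216, 155 and 333 CPM, with Cre 2 below control 2. Eef1e1 had 0, 2698 and 7915 counts against 6301, 12950 and 679.

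The enzymes that modify the elongation factors were uneven. Eef1akmt1, a lysine methyltransferase of eEF1A, had 8965, 0 and 1688 control counts against 1598, 1956 and 2983 with Cre. Eef1akmt2, of the same class, had 0, 3931 and 1246 against 2106, 1233 and 0, with 64.8% of its CPM in control 2. Each was missing from a library where the other was high. Eef2k, the kinase that inhibits eEF2, had 0 counts in every control and 382, 2 and 4 in the Cre libraries, at least 106-fold higher with a floor of 3 counts over the control group, and Cre 1 held 97.9% of its CPM. Eef2kmt, a methyltransferase of eEF2, had 10, 0 and 0 against 1, 0 and 496 counts.

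Other genes of the pathway that the name rule leaves out were taken from 7 lists with 92 genes in the table, of which 58 were tested and 0 passed (smallest edgeR adjusted p = 0.681). A positive log2 fold change was fitted for 42 of the 58 (72.4%, median 0.66, against 54.2% and 0.14 over all tested genes). The lists were chosen with earlier results of these data known. The signs given for them are from TMM scaling alone, and the balance of signs depended on the scaling. At an edgeR unadjusted p under 0.05 there were 6, all higher in the Cre libraries. Of all tested genes, 4.49% had such a p in that direction. The detected genes of these lists numbered 38, 45 and 38 in the controls and 65, 69 and 59 in the Cre libraries, beside the ratio of 1.45 over all genes given above. The single genes named from here on are, in each list, among those with the smallest edgeR unadjusted p. They were picked for their difference in these data and do not stand for their lists. Genes of the integrated stress response, the programme that follows phosphorylation of eIF2, were positive in 8 of 8 tested (median 1.18), with 0 at an unadjusted p under 0.05. Impact, which restrains the kinase GCN2, had 2, 0 and 1246 control counts against 11114, 3074 and 3401 with Cre, and Chac1 had 1417, 76 and 1 against 686, 2729 and 2604. The mTORC1 list had 7 of 10 positive (median 0.71). Akt2, a kinase upstream of mTORC1, had 5, 0 and 0 counts against 290, 562 and 369 (log2 fold change 7.53 ± 3.88, SE; edgeR unadjusted p = 0.0659, adjusted p = 1).

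Initiation partners had 7 of 13 positive (median 0.03), among them Cyfip1, which holds eIF4E with the fragile X protein and had 0 counts in every control and 684, 1064 and 991 in the Cre libraries. Paip2, which keeps the poly(A)-binding protein from the scaffold, was at 1084, 1549 and 1695 CPM against 539, 971 and 512 CPM and so lower in every Cre library (log2 fold change -0.97 ± 0.53, SE; edgeR adjusted p = 1). Aminoacyl-tRNA synthetases had 14 of 18 positive (median 0.73), with Cars, the cysteine enzyme, at 8, 0 and 1 against 2214, 657 and 1871 counts. Termination and recycling factors had 4 of 5 positive (median 0.55), and the release factor Etf1 had 1, 0 and 9 counts against 1423, 7280 and 1297. The enzymes that make hypusine and diphthamide on eIF5A and eEF2 had 2 of 3 positive (median 0.11), and of the mitochondrial translation factors only Mrrf was tested, at -2.49 ± 3.19 (SE; edgeR adjusted p = 1).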

How the data were processed

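Total RNA of 6 samples (1 ng each, RNeasy Micro extraction) went into VAHTS Universal V6 libraries, per the labels' protocols. The submitters' processing notes name mm10 and the tools DESeq2, fastp, HISAT2, HTSeq and R 3.2.0, without a role for any of them. The sources used here give no annotation and no strand setting. The deposited tables hold raw counts and FPKM of 22413 genes. In the deposited FPKM each gene had a constant length across libraries, with the column total as the depth.

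Counts were tested with edgeR 4.0.16 (TMM, filterByExpr, robust quasi-likelihood, Benjamini-Hochberg over 5727 genes, threshold 0.05) under R 4.3.3, on Cre against control alone. DESeq2 1.42.0, limma 3.58.1 (voom and log2(FPKM + 1 or 0.1)), other filters and scalings, a replicate block and each library left out were alternatives. CPM are by column total, and ± is the SD or SE named beside it. Simulated data were used to check edgeR, DESeq2 and limma voom at a low spread, where they recovered most changed genes, and at one near that of these libraries, where they did not. Libraries held 7486359 to 21126291 counts. Members with values in the text are the inhibitors, the 3 of each role with the highest FPKM, those with an unadjusted p under 0.05, no overlap at a mean count of 20 or more, or over 60% of their CPM in 1 library at a mean of 100 CPM or more; other members named were chosen after their values were seen. The members and lists were chosen with earlier results of these data known, and the promoter motifs after the sequences were read. Near copies were sought with blastn among GENCODE vM21 transcripts, in which 65 members had a coding transcript. Of these, 27 had a near copy in another gene, among them Eif1 (13 genes), Eef1g (4), and Eef1b2, Eif4e and Eif2s2 (1 each). The caution given for the counts of Eif1ad applies to them too. The search did not ask where a matching gene lies, so transcripts of overlapping genes can be among the copies. Intervals and floors cover counting error only. A gene that the naming rule picks from the pathway lists is not reported here.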

Additional observations from a re-analysis of the deposited data

How the results depend on the processing

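A count of 0 allows up to 0.142 to 0.401 CPM, and thinning every library to 7486359 counts left 40 to 53 members detected per library, against 41 to 54 before. The biological coefficient of variation was 2.04. Where edgeR called 0 genes and 0 members, DESeq2 on the same genes called 305 and 3, DESeq2 with its own filter 885 and 4, and limma voom 88 and 2. At an unadjusted p under 0.05 edgeR had 281 genes and 4 members. Without 1 library at a time edgeR called 0 to 7 genes and 0 members; 7, 3 and 4 genes were called without controls 1, 2 and 3 and 2 without Cre 1. The cause was not tested. The log2 fold change of Eef1a1 turned from -0.08 to 0.08 with the replicate block and ran from -0.4 to 0.58 without 1 library at a time, being 0.58 without control 3 and 0.1 without Cre 2; limma voom gave -0.98. With DESeq2 size factors in edgeR, those of Eef1a1, Eif1, Eif2s2 and Eif4g2 were -0.4, 0.47, 0.48 and -0.81. Those of Pdcd4, Eif2ak3, Eif4e2, Eif1ad, Eef1b2, Eif2s2, Eif1, Eif4e, Eif4g2 and Eif5 kept their sign in all 16 alternatives. The ratio of detected members was 1.21 to 1.25 at other minimums or after thinning and 1.17 to 1.24 without 1 library at a time (chosen after seeing the data), and the ratio of summed levels 1.08 to 1.14 with other units, scaling or without Eef1a1. Same-numbered libraries did not deviate together (correlations across genes of -0.0248, 0.028 and -0.00851), and 2 of 6 libraries correlated best with their own number. Differently numbered libraries were at -0.0467 to 0.0526. The sources used here do not say whether the numbers pair the samples, and correlations this close to 0 cannot decide it. With the replicate block edgeR called 0 genes and 0 members, and 2 members had an unadjusted p under 0.05, Eef1b2 and Eif2s2.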
